A study of Mus musculus with 13 samples.

Results

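Adipose stem and progenitor cells (ASPCs) are marked by 8 genes, *Pdgfra*, *Pdgfrb*, *Ly6a*, *Cd34*, *Dpp4*, *Pi16*, *F3* and *Clec11a*, which were followed in bulk RNA-Seq of whole parametrial white adipose tissue (pmWAT). These 8 genes were chosen by name as markers of ASPCs and their subsets, out of 33618 gene identifiers with counts, and all 8 were among the 16753 genes that passed the filter on low counts. Libraries came from 7 female mice labelled *Lmna* fl/fl and 6 labelled *Lmna* iADKO. Mice of both genotypes carried loxP sites around exons 10 and 11 of *Lmna*, were given 50 mg/kg tamoxifen for 5 days at 12 to 14 weeks of age, and were sampled 2 weeks posttamoxifen. The iADKO mice also carried 1 allele of Adipoq-CreERT2, a tamoxifen-activated Cre driven by the adiponectin promoter, and the fl/fl mice carried no Cre. The Cre is driven in adipocytes, so ASPCs were not the targeted cells, and the presence of CreERT2 cannot be told apart from loss of *Lmna*. In whole tissue, fewer cells of a type and less RNA per cell cannot be told apart either.

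ASPCs are the fibroblast-like stromal cells of fat from which new adipocytes form. In mouse WAT they are commonly divided into interstitial progenitors, marked by *Dpp4* and *Pi16*, committed preadipocytes, marked by *Icam1*, and a group marked by *F3* (CD142) that has been described as restraining adipogenesis in neighbouring cells. *Pdgfra*, *Pdgfrb*, *Ly6a* and *Cd34* are used more broadly to sort progenitors, although *Pdgfrb* is also expressed in mural cells, *Ly6a* and *Cd34* in endothelial cells, and *Dpp4* in several epithelial and immune cells.

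Between 19147428 and 19776491 counts per library were assigned to genes in fl/fl and between 18854223 and 19569221 in iADKO. *Lmna* itself was at 84.7 ± 7.51 CPM (counts scaled by the TMM-normalized library total, mean ± SD, n = 7) with the fl/fl label and 96.7 ± 11.5 (n = 6) with the iADKO label, a difference of 0.19 on the log2 scale (adjusted p = 0.0785 by edgeR's quasi-likelihood test). That count covers the whole gene, including exons outside the loxP sites and *Lmna* RNA of cells without Cre, so it does not check the labels, and every direction given here rests on them. Markers of other cells also differed between the genotypes. All 8 adipocyte markers were lower in iADKO (summed CPM of 10220 to 16700 for fl/fl against 5444 to 10250 for iADKO), and 6 of 9 macrophage markers were higher (1867 to 5932 and 3312 to 5757). These counts are of genes with an adjusted p under 0.05, which 30.5% of all tested genes had. Within their genotypes, 2 libraries stood apart. The library fl/fl replicate 5 had the lowest adipocyte sum and the highest macrophage sum of its group, and iADKO replicate 6 had the highest adipocyte sum and the lowest macrophage sum of its group. Calls of the 8 genes and counts of each list are given with and without these 2 libraries where they change.

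None of the 8 progenitor genes passed the threshold of 0.05 on the adjusted p in edgeR's quasi-likelihood test. Among all tested genes, 30.5% passed it, 14.1% being higher and 16.3% lower in iADKO. Without adjustment, 2 of the 8 had a p under 0.05 in edgeR, namely *Pdgfra* and *F3*. They ranked only 5844 and 6094 by p among the 16753 tested genes, so a p under 0.05 was common among all tested genes. Neither DESeq2 nor limma on the deposited log2 values called any of the 8, where they called 34.1% and 30.8% of all tested genes. The log2 fold changes, as iADKO minus fl/fl, were above 0 for 7 of the 8 and below 0 for *F3*. Their median was 0.07, beside a median of 0.03 over all tested genes, of which 54.7% were above 0. For every one of the 8 genes, the ranges of the 2 genotypes overlapped, while 6.64% of all tested genes had ranges that did not, 2.71% with iADKO higher.

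**Figure D1:**
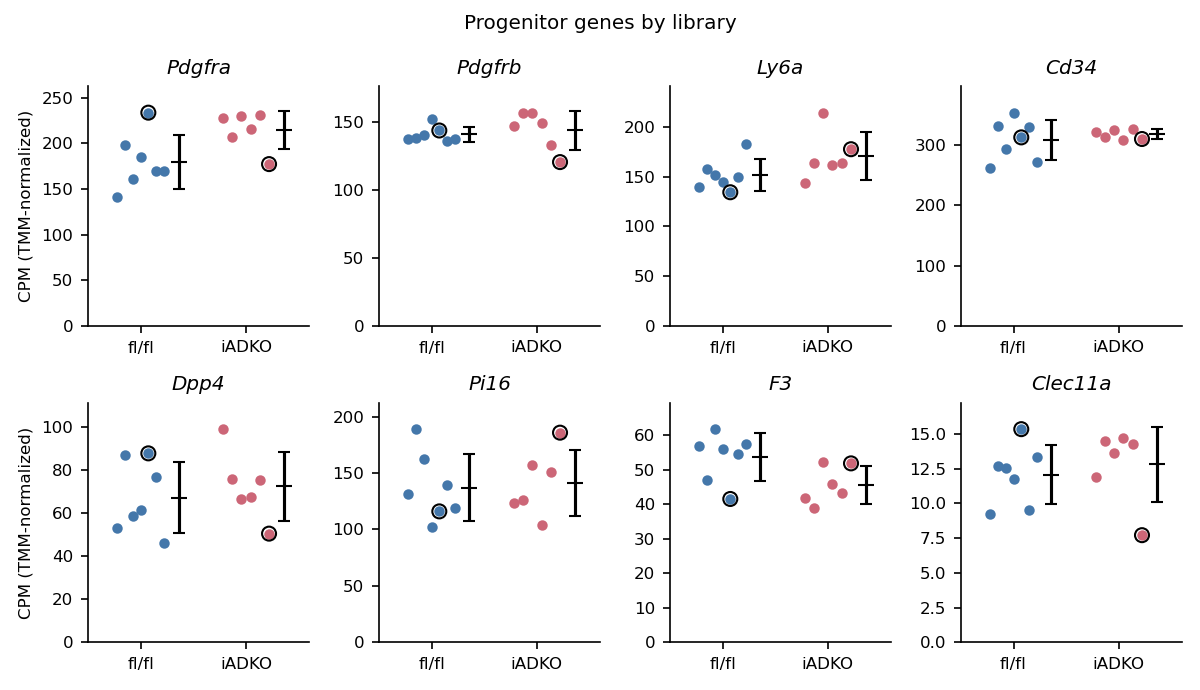
TMM-normalized CPM of each progenitor gene (vertical axes, linear, starting at 0) in each fl/fl and iADKO library, with the mean and SD of each genotype as a bar beside the points and rings around fl/fl replicate 5 and iADKO replicate 6. The genotypes overlap for every gene, and the ringed libraries are the highest fl/fl and the lowest iADKO value for *Pdgfra*, at 233.8 and 177.4 CPM.

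*Pdgfra* encodes the α receptor for platelet-derived growth factors and is the most widely used marker of ASPCs. The gene (ENSMUSG00000029231) lies on the plus strand of GRCm39 at chr5:75311994-75358876. Its CPM ran from 140.9 through a median of 170.2 to 233.8 in fl/fl, and from 177.4 through 222.2 to 231.5 in iADKO. All 6 iADKO libraries were above the fl/fl median, but none was above fl/fl replicate 5. The means were 179.9 ± 29.8 (SD, n = 7) and 215.1 ± 20.7 (SD, n = 6), and the log2 fold change was 0.26 (95% interval 0.04 to 0.48), a fold of 1.20 (1.03 to 1.39). The adjusted p was 0.0691 in edgeR, and a two-sided exact permutation test, with 1716 arrangements of the genotype labels, gave p = 0.0344 before any adjustment.

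The result for *Pdgfra* turned on those same 2 libraries. It rose in iADKO without fl/fl replicate 5 (log2 fold change 0.34, edgeR adjusted p = 0.00668), without iADKO replicate 6 (0.31, adjusted p = 0.0295) and without both (0.36, adjusted p = 0.00208), the last being a choice made after the data were seen. These were the highest fl/fl and the lowest iADKO library for *Pdgfra*, so leaving them out widened the difference by construction. The same 3 fits called 39.5%, 34.2% and 42.9% of all tested genes, beside 30.5% with all libraries. The library names carry animal numbers that fall into series. The log2 difference was -0.09 in the series with 2 fl/fl and 2 iADKO libraries, which holds both libraries that stood apart, and 0.40 in the series with 3 fl/fl and 2 iADKO libraries. These differences within series were not tested. The series of fl/fl replicates 6 and 7 and that of iADKO replicates 3 and 5 each held a single genotype. A fit with the series as a block thus takes the genotype difference from the other series alone.

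*Pdgfrb* is the gene of the β receptor. It lies on the plus strand at chr18:61178212-61218133 (ENSMUSG00000024620). In fl/fl, CPM ran from 135.8 through 138.3 to 152.1, and in iADKO from 120.3 through 147.7 to 156.6. The iADKO libraries thus held both the lowest value and the 2 highest. The means were 140.6 ± 5.64 (SD, n = 7) and 143.5 ± 14.4 (SD, n = 6), with a fold of 1.02 (95% interval 0.931 to 1.119; adjusted p = 0.744 in edgeR). In the same 2 series the log2 differences were -0.14 and 0.13.

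*Ly6a* encodes the surface protein Sca-1, used to sort progenitors from the stromal fraction. Levels ran from 134.2 through 149.2 to 183.1 CPM in fl/fl, and from 143.1 through 163.2 to 214.1 in iADKO. The highest fl/fl value was exceeded by 1 iADKO library only. The means were 151.4 ± 15.96 (SD, n = 7) and 170.5 ± 24.0 (SD, n = 6), and the fold was 1.13 (95% interval 0.986 to 1.29; adjusted p = 0.160 in edgeR). *Ly6a* (ENSMUSG00000075602, chr15:74863840-74869880, minus strand) belongs to a family of similar neighbouring genes. Of the windows of 100 bases in its exons, 6.15% also occur in another gene, so a small share of its reads could have been divided with relatives such as *Ly6c1*.

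*Cd34*, a cell surface sialomucin of progenitors and endothelium, had the smallest coefficient of variation of the 8 genes within iADKO. It lies on the plus strand at chr1:194621029-194647172 (ENSMUSG00000016494). Its CPM ran from 261.7 through 312.7 to 353.7 in fl/fl, and from 308.6 through 317.6 to 327.2 in iADKO. All 6 iADKO values lay within the fl/fl range, with a coefficient of variation of 2.58% in iADKO and 10.9% in fl/fl. The means were 307.9 ± 33.5 (SD, n = 7) and 317.7 ± 8.20 (SD, n = 6), and the fold was 1.03 (95% interval 0.930 to 1.15; adjusted p = 0.648 in edgeR). The difference in spread was not tested.

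*Dpp4* and *Pi16* mark interstitial progenitors, and both varied widely from mouse to mouse. *Dpp4*, a membrane peptidase, lies on the minus strand at chr2:62159798-62242576 (ENSMUSG00000035000). Levels ran from 45.96 through 61.3 to 87.6 CPM in fl/fl, and from 50.4 through 71.1 to 98.8 in iADKO, so that levels within a genotype differed more than the means did. The means were 67.1 ± 16.6 (SD, n = 7) and 72.3 ± 15.9 (SD, n = 6), and the fold was 1.08 (95% interval 0.832 to 1.40; adjusted p = 0.663 in edgeR). Without iADKO replicate 1, the highest library, the log2 fold change was -0.003.

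*Pi16* encodes a secreted peptidase inhibitor-like protein and lies on the plus strand at chr17:29536654-29549567 (ENSMUSG00000024011). Its CPM ran from 102.2 through 131.3 to 188.8 in fl/fl, and from 104.3 through 138.3 to 185.7 in iADKO, which is nearly the same range. The means were 137.1 ± 29.9 (SD, n = 7) and 141.2 ± 29.1 (SD, n = 6), and the fold was 1.03 (95% interval 0.820 to 1.29; adjusted p = 0.853 in edgeR). Its log2 difference was 0.35 in the series of 2 and 2 libraries and -0.35 in the series of 3 and 2, the opposite order to *Dpp4*, at -0.33 and 0.42.

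*F3* encodes tissue factor, the surface initiator of coagulation also known as CD142, and was the single progenitor gene with a negative log2 fold change. It lies on the plus strand at chr3:121516610-121528820 (ENSMUSG00000028128). Its CPM ran from 41.5 through 56.1 to 61.7 in fl/fl, and from 38.9 through 44.6 to 52.3 in iADKO. All 6 iADKO libraries were below the fl/fl median, but fl/fl replicate 5 was lower than 5 of them. The means were 53.6 ± 6.89 (SD, n = 7) and 45.6 ± 5.46 (SD, n = 6), and the log2 fold change was -0.23 (95% interval -0.43 to -0.03), a fold of 0.852 (0.740 to 0.980). The adjusted p was 0.0774 in edgeR, and the exact two-sided permutation test gave p = 0.0536 before any adjustment.

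As with *Pdgfra*, the call for *F3* changed with the libraries that stood apart. *F3* fell in iADKO without fl/fl replicate 5 (log2 fold change -0.28, edgeR adjusted p = 0.0137), without iADKO replicate 6 (-0.27, adjusted p = 0.0447) and without both (-0.35, adjusted p = 0.00313), the last chosen after the data were seen. For *F3*, fl/fl replicate 5 was the lowest of its group and iADKO replicate 6, at 51.8 CPM, lay above the mean of its group. Leaving out either thus widened the difference by construction. The same 3 fits called 39.5%, 34.2% and 42.9% of all tested genes, beside 30.5% with all libraries. The log2 difference was 0.02 in the series of 2 and 2 libraries and -0.45 in the series of 3 and 2.

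*Clec11a* encodes a secreted lectin-family growth factor known from bone marrow stroma. It lies on the minus strand at chr7:43952111-43956377 (ENSMUSG00000004473) and had the lowest CPM of the 8 genes. Values ran from 9.20 through 12.5 to 15.3 CPM in fl/fl, and from 7.71 through 13.95 to 14.7 in iADKO. Again fl/fl replicate 5 was the highest of all libraries and iADKO replicate 6 the lowest. The means were 12.1 ± 2.15 (SD, n = 7) and 12.8 ± 2.69 (SD, n = 6), and the fold was 1.06 (95% interval 0.847 to 1.33; adjusted p = 0.696 in edgeR).

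**Figure D2:**
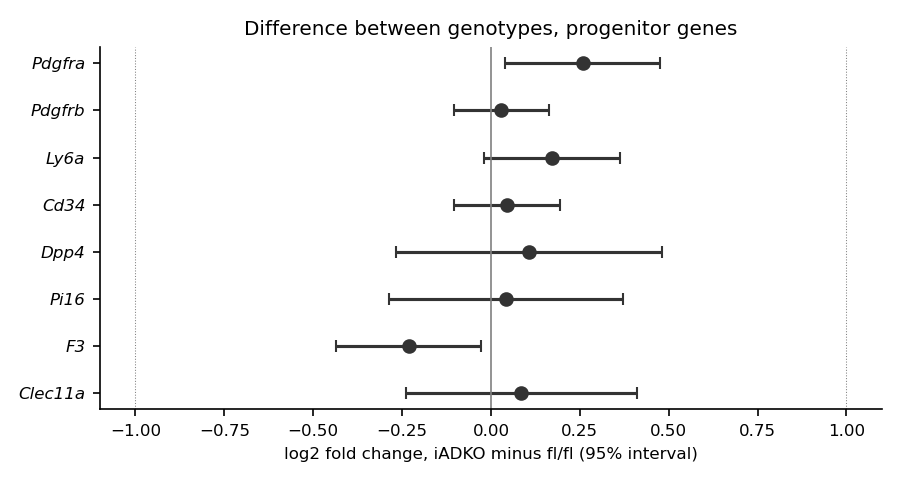
Log2 fold change of each progenitor gene, iADKO minus fl/fl (horizontal axis), from edgeR's fit to all 13 libraries, with points for estimates, bars for 95% intervals and dotted lines at -1 and 1. The unadjusted intervals of *Pdgfra*, at 0.04 to 0.48, and *F3*, at -0.43 to -0.03, leave out 0, and every interval lies within a 2-fold change.

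The intervals bound what these libraries allow. The widest belonged to *Dpp4*, from 0.832 to 1.40 on the fold scale, and the narrowest to *Pdgfrb*, from 0.931 to 1.119. For no progenitor gene did the unadjusted interval reach a 2-fold change in either direction. With reads counted per library size alone, without the TMM factors, 4 of the 8 passed as higher in iADKO: *Pdgfra* (log2 fold change 0.45, edgeR adjusted p = 0.00784), *Ly6a* (0.37, 0.00328), *Cd34* (0.25, 0.0200) and *Pdgfrb* (0.23, 0.0158). That scaling moved the median of all tested genes by 0.20 and called 44.2% of them higher, against 7.62% lower. TMM factors ran between 0.892 and 1.02 for the fl/fl libraries and between 1.05 and 1.102 for those of iADKO. The share of counts in each library's 10 most abundant genes was 9.54% to 14.3% and 6.51% to 9.12%.

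Levels were set beside each other per kilobase of merged exons. In fl/fl, *Ly6a* was highest at 32.6 ± 3.44 CPM per kb (SD, n = 7), followed by *Cd34* at 25.7 ± 2.80, *Pi16* at 21.6 ± 4.69, *Pdgfrb* at 17.4 ± 0.697, *F3* at 17.3 ± 2.23 and *Pdgfra* at 14.6 ± 2.42. Each neighbouring pair in this order overlapped among the fl/fl libraries. *Dpp4*, at 7.64 ± 1.89, and *Clec11a*, at 3.98 ± 0.709, lay below the rest and did not overlap with their neighbours. In iADKO, the order was the same except that *Pdgfra*, at 17.5 ± 1.68 (SD, n = 6), stood above *F3*, at 14.7 ± 1.76, with overlapping libraries. The order depended on the length used. Per kilobase of the canonical transcript, *Cd34* was highest in fl/fl at 124.8 and *Ly6a* second at 40.8, and *Clec11a* was again lowest.

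The mix of progenitor genes was also expressed relative to *Pdgfra* within each library. Every log2 ratio was lower in iADKO on average, by 0.10 for *Ly6a* up to 0.50 for *F3*. The log2 ratio of *F3* to *Pdgfra* was -1.74 ± 0.41 (SD, n = 7) in fl/fl and -2.24 ± 0.26 (SD, n = 6) in iADKO. The ranges of the genotypes overlapped for all 7 ratios, and every ratio has *Pdgfra*, whose mean was higher in iADKO, below the line.

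Genes used with these 8 to describe ASPCs and their subsets were counted next. Over 6 lists, 73 genes were tested. In iADKO, 6 of them were higher and 4 lower, or 13.7%, beside 30.5% of all tested genes. The median log2 fold change over the 73 was 0.10. None of 13 further pan-stromal genes passed in edgeR, with a median of 0.12, although 3 had an unadjusted p under 0.05, DESeq2 called 2 lower and limma called none. Without fl/fl replicate 5 and iADKO replicate 6, edgeR called 2 of the 13 higher and 2 lower. Their largest difference was in *Lum*, a collagen-binding proteoglycan, at 356.0 ± 77.2 CPM (SD, n = 7) and 453.5 ± 72.2 (SD, n = 6), with a log2 fold change of 0.35 (adjusted p = 0.0768). None of 14 interstitial progenitor genes passed in edgeR, DESeq2 or limma, with a median of 0.08 and 2 at an unadjusted p under 0.05, and without those 2 libraries edgeR called 1 higher and 2 lower. Their largest difference was in *Bmp7*, a bone morphogenetic protein, at 0.94 (adjusted p = 0.0943), whose mean CPM was 1.54 ± 0.583 (n = 7) and 2.97 ± 2.57 (n = 6).

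Of the 13 tested genes of the committed preadipocyte list, 4 were higher and 1 lower, with a median of 0.17, where 30.5% of all tested genes were called. *Vcam1*, an adhesion molecule that is also expressed by endothelium, averaged 70 ± 9.71 CPM (SD, n = 7) in fl/fl mice and 98.4 ± 15.5 (SD, n = 6) in iADKO mice, a log2 fold change of 0.49 ± 0.11 (SE, edgeR adjusted p = 0.00394). *Cd24a* was counted in this list, although it is a surface glycoprotein of early adipocyte progenitors and of immune cells. It rose by 0.45 (adjusted p = 0.0235). *Bmper*, which binds bone morphogenetic proteins, and *Icam1*, an adhesion molecule of preadipocytes, leukocytes and endothelium, completed the 4 with 0.44 and 0.38 (adjusted p = 0.0184 and 0.0380), and were named after their values were seen. The lower gene was *Ccn5*, a secreted matrix-associated protein, at 13.7 ± 8.09 CPM (range 3.64 to 28.7) in fl/fl and 3.76 ± 0.637 (3.30 to 5.01) in iADKO, a log2 fold change of -1.86 ± 0.37 (SE, adjusted p = 0.00290). The genotypes overlapped for all 5 of these genes. With the series of library names as a block in edgeR, *Ccn5* was still called (adjusted p = 0.0319). The 4 higher genes were not, with adjusted p of 0.0525 (*Cd24a*), 0.0529 (*Vcam1*), 0.0594 (*Icam1*) and 0.168 (*Bmper*). That fit called 11.9% of all tested genes and compared the genotypes only within the series that held both. When each of the 13 libraries was left out in turn, the call of *Icam1* was lost in 10 fits (adjusted p up to 0.0883) and that of *Cd24a* in 1, without iADKO replicate 4 (adjusted p = 0.0517). Without both libraries that stood apart, 5 genes of the list were higher and 3 lower, when 42.9% of all tested genes were called. Macrophage markers moved with the genotypes in the same direction as *Vcam1*, *Cd24a* and *Icam1*, and their part in these differences was not tested.

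Among 9 genes used with *F3* for the CD142 group, 2 were higher and 1 lower, with a median of 0.22, where 30.5% of all tested genes were called. *Gdf10*, a ligand of the TGF-β family, rose by 0.44 (adjusted p = 0.0455), while *Meox2*, a homeobox gene that is also expressed in endothelium, fell by 0.48 on the log2 scale (adjusted p = 0.00965). *F3* had a log2 fold change of opposite sign to *Gdf10* and of the same sign as *Meox2*. Of the 9 genes, 8 were above 0 and 1 below. Of 19 regulators of adipogenesis, edgeR called 2 lower and none higher, with a median of 0.06. DESeq2 called 2 lower and 2 higher and limma 2 lower and none higher, and 3 had an unadjusted p under 0.05 in each direction in edgeR. The growth factor gene *Fgf10* fell by 0.42 (73.0 ± 15.3 CPM in fl/fl and 54.6 ± 7.46 in iADKO, adjusted p = 0.0275). The gene of the preadipocyte transcription factor *Zfp423* fell by 0.41 (36.6 ± 8.10 and 27.5 ± 2.40, adjusted p = 0.0255). With the series as a block, *Gdf10*, *Meox2*, *Fgf10* and *Zfp423* were not called (adjusted p of 0.213, 0.106, 0.221 and 0.143), in a fit that called 11.9% of all tested genes. When single libraries were left out, the calls of *Gdf10*, *Fgf10* and *Zfp423* were lost in 10, 6 and 4 of 13 fits, with adjusted p up to 0.0992, 0.0627 and 0.0558. None of 5 PDGF ligands and cofactors passed in edgeR, DESeq2 or limma or had an unadjusted p under 0.05. The largest difference among them was 0.20 in *Pdgfrl* (adjusted p = 0.441). Without fl/fl replicate 5 and iADKO replicate 6, 9 of the 73 genes were higher and 12 lower, when 42.9% of all tested genes were called. The CD142 list then had 1 higher and 1 lower, and the regulators of adipogenesis had 4 lower.

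**Figure D3:**
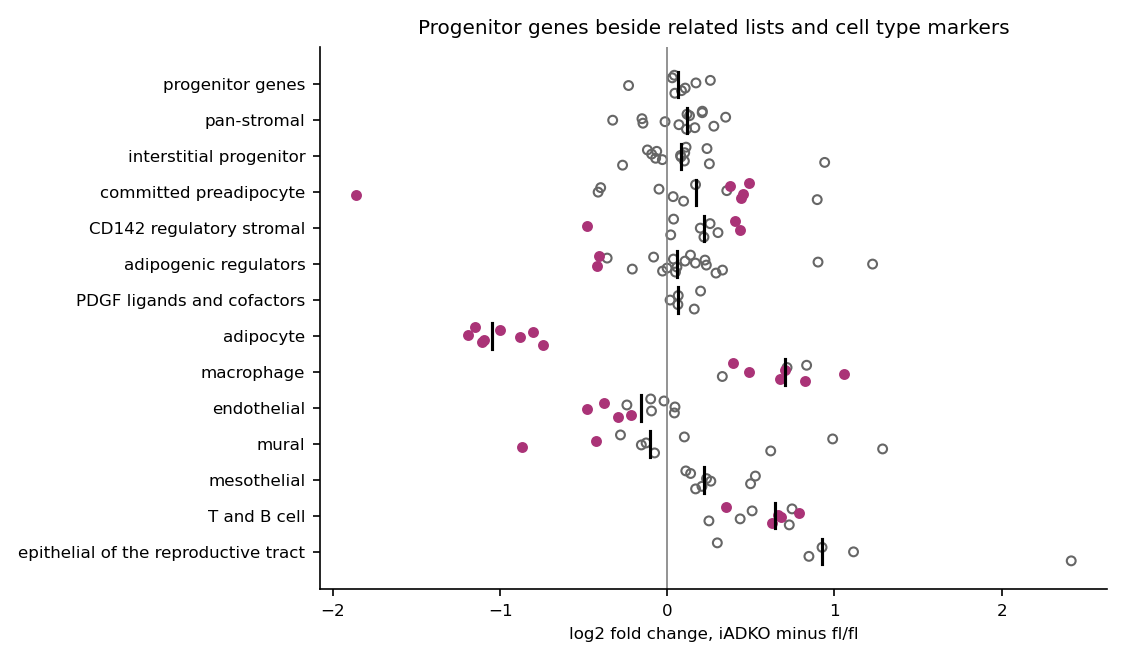
Log2 fold change, iADKO minus fl/fl (horizontal axis), of every tested gene in the progenitor lists and the marker lists of other cell types, with filled points for genes past the adjusted p threshold, open points for the others and a black line at each list's median. The 8 progenitor genes centre on 0.07 with none filled, and the 8 adipocyte markers lie on the negative side with all filled.

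Of 60 tested markers of other cell types, 11 were higher and 14 lower, or 41.7%, beside 30.5% of all tested genes, 14.1% higher and 16.3% lower. Among the most abundant markers, *Pnpla2* of adipocytes, a triglyceride lipase, fell by 1.00 on the log2 scale (adjusted p = 0.000640), and *Lyz2* of macrophages, lysozyme, was at 1360 ± 866 CPM (SD, n = 7) and 2234 ± 378 (SD, n = 6), with a log2 fold change of 0.72 (adjusted p = 0.103). For cell types that share *Cd34*, *Ly6a* or *Pdgfrb*, edgeR called 4 of 10 endothelial and 2 of 10 mural markers lower and none higher, with summed CPM of 1219 to 1632 and 1229 to 1389 for endothelium, and 1016 to 1752 and 1143 to 2311 for mural cells. DESeq2 called 5 endothelial and 2 mural markers lower, and limma 4 and 2. DESeq2 called none of the endothelial and 2 of the mural markers higher, and limma called none of either higher. In edgeR, 0 and 3 had an unadjusted p under 0.05 with a higher level. By the mean over all 13 libraries, the most abundant were *Ptprb*, an endothelial phosphatase (-0.24, adjusted p = 0.0587), and *Myh11*, a smooth muscle myosin (0.99, adjusted p = 0.0586). *Myh11* averaged 221.4 ± 73.5 CPM (SD, n = 7) in fl/fl, below *Mcam* at 326.9 ± 54.7, and at 439.5 ± 289 (SD, n = 6) in iADKO. None of 8 mesothelial markers passed in edgeR (2 at an unadjusted p under 0.05, 1 higher in DESeq2, none in limma). Their sums were 389.0 to 815.1 and 417.8 to 941.8, and *Upk3b* was at 0.14 (adjusted p = 0.688). Of T and B cell markers, 5 of 10 were higher (summed CPM 45.8 to 80.02 and 66.3 to 104.5), with *Cd79a* of B cells at 0.66 (adjusted p = 0.04995). None of 5 tested epithelial markers of the reproductive tract passed in edgeR (2 at an unadjusted p under 0.05, 1 higher in DESeq2, none in limma). The sums over all 7 listed epithelial genes were 14.0 to 48.0 and 27.9 to 174.7, with the highest in iADKO replicate 6, and *Krt7*, a keratin, was at 0.93 (adjusted p = 0.0814). Without fl/fl replicate 5 and iADKO replicate 6, edgeR called 8 macrophage, 2 mesothelial, 4 T and B cell and 1 epithelial marker higher, and 8 adipocyte, 6 endothelial and 5 mural markers lower. That fit called 42.9% of all tested genes, and the fit with the series as a block 11.9%. With the series as a block, 8 adipocyte, 1 endothelial and 1 mural marker were lower and 2 T and B cell markers were higher, and *Cd79a* was not called (adjusted p = 0.0959). *Cd79a* also lost its call in 10 of 13 fits with 1 library left out (adjusted p up to 0.107).

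To compare progenitor genes with the makeup of each sample beyond genotype, the mean of each genotype was subtracted from the log2 CPM of the 8 genes and of the summed markers, and Pearson's r and Spearman's rho were taken over 13 libraries. Of 56 relations between a progenitor gene and a marker list, 7 had an adjusted permutation p of r under 0.05. The closest was that of *Dpp4* with mesothelial markers. Its r was 0.94 (p = 1e-05, the smallest that 100000 permutations can give, adjusted 0.00056) and its rho 0.97 (p = 1e-05). The r was 0.91 without the 2 libraries farthest from the median of *Dpp4*, 0.96 within fl/fl and 0.92 within iADKO. By rho, *Dpp4* also ran against adipocyte markers (-0.81, permutation p = 0.00147, adjusted 0.0165). For that relation r was -0.72 (permutation p = 0.00876, adjusted 0.0545), and -0.46 without fl/fl replicate 5 and iADKO replicate 6. Mesothelial cells, which cover the surface of visceral fat, also express *Dpp4*, and their share of the *Dpp4* counts was not tested.

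*F3* rose and fell with adipocyte markers (r = 0.84, permutation p = 0.0002, adjusted 0.0056; rho = 0.90, permutation p = 0.00016) and against mesothelial markers (r = -0.81, permutation p = 0.00155, adjusted 0.0284; rho = -0.87, permutation p = 0.00049). Without the 2 libraries farthest on *F3*, r was 0.68 and -0.79, and without fl/fl replicate 5 and iADKO replicate 6 it was 0.78 and -0.73. *Pdgfra* had the opposite relation to adipocyte markers (r = -0.80, permutation p = 0.00203, adjusted 0.0284; rho = -0.78, permutation p = 0.00324). That relation was -0.68 without the 2 libraries farthest on *Pdgfra*, and -0.46 without fl/fl replicate 5 and iADKO replicate 6.

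*Clec11a* was related to macrophage markers (r = 0.70, permutation p = 0.00264, adjusted 0.0289; rho = 0.84, permutation p = 0.0005) and, inversely, to adipocyte markers (r = -0.82, permutation p = 0.0031, adjusted 0.0289; rho = -0.74, permutation p = 0.00723) and endothelial markers (r = -0.66, permutation p = 0.00596, adjusted 0.0477; rho = -0.76, permutation p = 0.00308). Without the 2 libraries farthest on *Clec11a*, these r were 0.67, -0.53 and -0.57. Without fl/fl replicate 5 and iADKO replicate 6 they were 0.47, -0.39 and -0.47. For adipocyte markers, the adjusted permutation p of rho was 0.0506. No r is given within the series of library names, the largest of which held 5 of the 13 libraries.

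**Figure D4:**
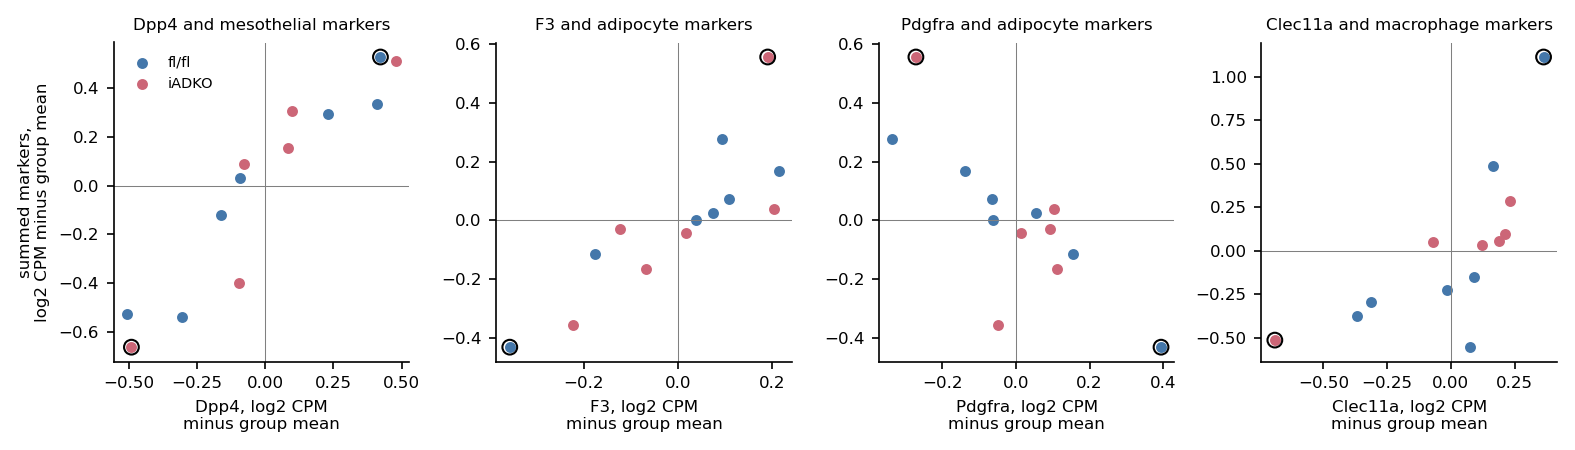
Deviation from the genotype mean of log2 CPM for a progenitor gene (horizontal axes) and for the summed markers of a cell type (vertical axes), 1 point per library, with rings around fl/fl replicate 5 and iADKO replicate 6. *Dpp4* and mesothelial markers form a line through both genotypes (r = 0.94), and r was -0.80 for *Pdgfra* and 0.70 for *Clec11a*. The ringed libraries lie at or near the ends of every panel. Without them r was 0.90 for *Dpp4*, 0.78 for *F3*, -0.46 for *Pdgfra* and 0.47 for *Clec11a*.

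*Pdgfrb*, *Ly6a*, *Cd34* and *Pi16* had no relation with an adjusted p under 0.05 to any of the 7 marker lists. For *Pi16*, the largest r was with epithelial markers (0.68, permutation p = 0.0127, adjusted 0.065), then with mural markers (0.60, permutation p = 0.037, adjusted 0.122). Without fl/fl replicate 5 and iADKO replicate 6 these were 0.63 and 0.42. Its r with adipocyte markers was 0.39 and with mesothelial markers -0.26, and both changed sign, to -0.12 and 0.11, without the same 2 libraries. For *Cd34*, r with endothelial markers was 0.04, and for *Ly6a* it was 0.07, although endothelium expresses both. For *Pdgfrb*, r with mural markers was -0.62 (permutation p = 0.0649, adjusted 0.191). It was 0.07 within fl/fl, -0.82 within iADKO and -0.43 without fl/fl replicate 5 and iADKO replicate 6. The mural sum was 2311 and 2278 CPM in iADKO replicates 5 and 6, and 1143 to 1475 in the other iADKO libraries. Its 10 markers did not move together, with log2 fold changes above 0 for 4 and below 0 for 6, among them *Myh11* at 0.99 and *Cspg4* at -0.87.

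**Figure D5:**
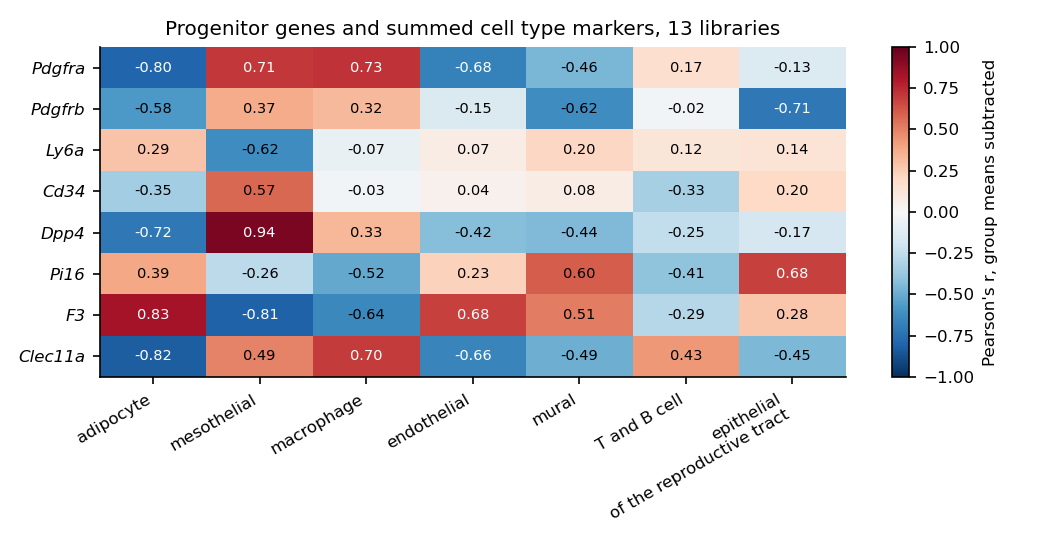
Pearson's r over 13 libraries, with genotype means subtracted, between each progenitor gene (rows) and the summed markers of each other cell type (columns), coloured from blue at -1 to red at 1. The cells of *Dpp4* with mesothelial markers (0.94) and *F3* with adipocyte markers (0.835) are the deepest red, and both stay high without fl/fl replicate 5 and iADKO replicate 6 (0.90 and 0.78).

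Between the progenitor genes themselves, none of 28 pairs had an adjusted permutation p of r under 0.05. The strongest was inverse, between *Dpp4* and *F3* (r = -0.77, permutation p = 0.00278, adjusted 0.0680; rho = -0.83, permutation p = 0.00088, adjusted 0.0246), and r was -0.70 without the 2 libraries farthest on *Dpp4*. *Pdgfra* came closest to *Clec11a* (r = 0.73, permutation p = 0.00486, adjusted 0.0680) and to *Dpp4* (r = 0.73, permutation p = 0.00909, adjusted 0.0848).

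For each progenitor gene, the 3 most similar of 13853 genes were taken by r over the 13 libraries with genotype means subtracted. With so many candidates high values arise in any case, and the values are given as a description. The closest to *Dpp4* were *Scrn1* (0.94), *Ccdc171* (0.94) and *Carmil3* (0.94), and those to *Clec11a* were *Ms4a6c* (0.97), *Ifi204* (0.97) and *Itga5* (0.94). *Pdgfrb* was nearest to the matrix genes *Col5a1* (0.91) and *Vcan* (0.89) and to *Tln1* (0.90), which encodes a cytoskeletal adaptor. *F3* was nearest to *Fbxw2* (0.93), to the adipocyte fatty acid-binding protein gene *Fabp4* (0.93) and to *Mrpl40* (0.91). The remaining lists were *Fbxl13* (0.96), *Zfp182* (0.93) and *Rtl5* (0.93) for *Pdgfra*, *Robo1* (0.89), *Tfb2m* (0.89) and *Fam98a* (0.88) for *Pi16*, *Pdia6* (0.91), *Hccs* (0.88) and *Ly6c1* (0.86) for *Ly6a*, and *Csmd1* (0.86), *Zfp109* (0.86) and *Bmp4* (0.86) for *Cd34*. *Ly6c1* shares exon sequence with *Ly6a*, as given above. None of the 8 lists named another of the 8 progenitor genes.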

How the data were processed

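Raw, unnormalized counts for each gene were deposited by the authors, with log2 values made from them by DESeq2's regularized log. Per the labels and the study's methods, strand-specific mRNA libraries were checked with FastQC 0.12.1 and aligned to mm39 with STAR 2.7.11a. The counting tool, annotation and strand setting are not given in the sources used here. Opposite-strand genes that overlap a progenitor gene held at most 2.3% of its counts. In R 4.3.3, the counts were filtered with filterByExpr, normalized by TMM and compared between 7 fl/fl and 6 iADKO libraries with edgeR 4.0.16's robust quasi-likelihood test. Benjamini-Hochberg adjustment ran over 16753 genes, and 0.05 was the threshold. DESeq2 1.42.0, limma 3.58.1 and other scalings, filters, blocks and left-out libraries were alternatives. Log2 CPM used a prior count of 2, and 95% intervals came from the standard error and edgeR's total degrees of freedom, prior plus residual. Coordinates are from GENCODE vM39 on GRCm39, which held 33184 of 33618 identifiers. Correlations used 100000 permutations within genotypes. The scripts were tested on simulated data with 200 changed genes. There edgeR recovered 80.5% of them with 3.59% false calls, DESeq2 85% with 16.3%, and edgeR with the replicate block 75.5% with 10.1%. The total counts per library differed little, and intervals reflect the spread between mice.

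The 8 genes and the lists were chosen with earlier results of these data known. From each progenitor list, up to 2 highest and 2 lowest calls were named, or the largest difference where none passed. From each marker list, the gene with the highest mean CPM was named. For each progenitor gene, the 3 genes closest by r whose average log2 CPM reached at least 1 were named. *Cldn4* and *Pax8* of the epithelial list did not pass the filter. A single-gene result that this rule names is not reported here.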

Additional observations from a re-analysis of the deposited data

How the results depend on the processing

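Leaving out single libraries gave log2 fold changes of 0.21 to 0.34 for *Pdgfra*, 0.003 to 0.08 for *Pdgfrb*, 0.10 to 0.22 for *Ly6a*, 0.01 to 0.08 for *Cd34*, -0.00276 to 0.19 for *Dpp4*, -0.05 to 0.14 for *Pi16*, -0.28 to -0.19 for *F3* and 0.03 to 0.20 for *Clec11a*. *Dpp4* turned negative without iADKO replicate 1 (-0.00276), and *Pi16* without fl/fl replicate 4 (-0.02) and without iADKO replicate 6 (-0.0518). The same fits called 1771 to 3323 genes higher and 2228 to 3296 lower, 0 to 1 of the 8 genes in each direction, 3 to 9 of the progenitor lists higher and 2 to 7 lower, and 7 to 16 markers higher and 10 to 16 lower. Without both fl/fl replicate 5 and iADKO replicate 6, chosen after seeing the data, 1 of the 8 was higher (*Pdgfra*, 0.36) and 1 lower (*F3*, -0.35), *Pi16* was at -0.11, and 12 list genes were lower.

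With library size only, 7397 genes were higher and 1276 lower, 4 of the 8 were higher (*Pdgfra* 0.45, *Pdgfrb* 0.23, *Ly6a* 0.37, *Cd34* 0.25), 35 list genes were higher and 2 lower, and 28 markers were higher. With the series of library names as a block, 784 genes were higher and 1202 lower, 0 list genes were higher and 1 lower, 2 markers were higher, and *Pi16* was at -0.0110 and *Clec11a* at -0.0109. DESeq2 called 7 list genes lower, and without the filter 3 list genes and 7 markers were higher. The causes were not tested.

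Replicate numbers of the labels are shared by the genotypes, but libraries with the same number correlated by -0.03 to 0.22 (mean 0.107, against -0.02 for other pairs) after genotype means were subtracted, and 2 of 6 iADKO libraries correlated best with their own number, so the numbers were not taken as pairs. With the replicate number as a block, without fl/fl replicate 7, 2379 genes were higher and 2460 lower, and 1 of the 8 was called (*Ly6a*, 0.21, edgeR adjusted p = 0.0494). The block changed no other call among the 8. On the simulated data, the fit with this block gave 10.1% false calls. The spread between mice limits these comparisons, as the intervals of the 8 genes show, and depth was near equal in all libraries.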
